A study of Mus musculus with 8 samples.

Results

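The 8 genes described here, Dynlt1c, Rdh19, Chst3, Fgf10, Dpcr1, Dcx, Gadl1 and St8sia1, were close to silent in liver RNA from mice injected with diethylnitrosamine (DEN) and were read without difficulty in liver RNA from untreated mice. They were picked by name, as some of the strongest falls of named protein-coding genes in the injected livers against the untreated ones, so their difference between those groups is how they were chosen and is given below as a description, with no test. They are 8 of 37583 genes in the count table, and all 8 are among the 17362 genes that had enough counts to be tested.

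Messenger RNA of whole liver tissue was sequenced in 8 libraries from mice 8 months old on a C57BL6/CBA background. The WT group (2 libraries) had the WT genotype and no injection. The DEN_WT group (2 libraries) had the same genotype and received DEN, a carcinogen that hepatocytes convert to a DNA-alkylating form, into the peritoneum at postnatal day 15 at a labelled dose of 25 ml per kg, for which no concentration is stated. The PR-SET7_LOBE group (4 libraries) had the genotype PR-SET7_LX_ALB_CRE and no injection. Cre under the albumin promoter acts mainly in hepatocytes, and the labels do not say which liver cells lost PR-SET7. PR-SET7 is the enzyme that places a single methyl group on lysine 20 of histone H4. The labels do not explain the word LOBE, and give neither the sex of the mice nor a sequencing run for any library, so DEN treatment and any run or library-preparation difference that goes with it cannot be told apart.

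The 8 genes share no pathway. Fgf10 encodes a ligand that mesenchymal cells release and that epithelial cells read through FGFR2. Rdh19, Chst3, St8sia1 and Gadl1 encode enzymes that act on retinoids and steroids, on chondroitin sulfate, on gangliosides and on the amino acids that give beta-alanine, in that order. Dynlt1c belongs to the family of Tctex-type light chains of the dynein motor, Dcx encodes doublecortin, the microtubule protein of migrating young neurons, and Dpcr1 (now Mucl3) encodes a mucin-like protein.

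What 7 of the 8 genes share is a sequence feature of their transcripts. Each of the 7 holds an unbroken dinucleotide run made only of pyrimidines (C and T in turn) or only of purines (G and A in turn), 33 to 74 bases long, in at least 1 of its GENCODE M21 transcripts. The windows below are shown because later paragraphs compare genes by this feature. Each gives the 10 transcript bases before the run in lower case and the first 20 bases of the run in capitals, 5′ to 3′ on the transcript strand.
Fgf10: gtttacctttTCTCTCTCTCTCTCTCTCTC
Dpcr1: cttctgcctgGAGAGAGAGAGAGAGAGAGA
Rdh19: tgacacagagTCTCTCTCTCTCTCTCTCTC
Dcx: cacattatatTCTCTCTCTCTCTCTCTCTC
St8sia1: tttagttcaaTCTCTCTCTCTCTCTCTCTC
Chst3: gggtcatactGAGAGAGAGAGAGAGAGAGA
Gadl1: accacatctcCTCTCTCTCTCTCTCTCTCT

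The run of Rdh19 lies in the 5′ UTR, at bases 13 to 75 of a transcript of 1889 bases. The other 6 lie in the 3′ UTR. They measure 74 bases in Fgf10, 71 in Dpcr1, 47 in Dcx, 42 in St8sia1, 35 in Chst3 and 33 in Gadl1. Among the 17205 other tested genes with an M21 transcript, 3.08% hold a run of 33 bases or more. The transcripts of Dynlt1c hold no such run of 8 bases or more.

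Levels are given as CPM (read counts scaled to a common library size) after scaling of library size by the trimmed mean of M-values (TMM), for each library in the order of its replicate number. Total counts were 13757466 and 16108081 in WT, 7305595 to 12170293 in PR-SET7_LOBE, and 10120058 and 10802335 in DEN_WT. On this scale 3 counts equal 0.265 to 0.287 CPM, so DEN_WT values near 0.27 CPM rest on about 3 reads. CPM values are not divided by transcript length, so levels are compared between libraries and never between genes. All 8 genes had every DEN_WT library below every WT library, as did 33.3% of all tested genes, and 789 tested genes (4.54%) passed edgeR's quasi-likelihood test as lower in DEN_WT at an adjusted p under 0.05. The genes named here held ranks 1, 2, 4, 5, 6, 7, 8 and 10 by p among those falls, and ranks 40 to 226 by the size of the fold change. St8sia1, at rank 10 with a log2 fold change of -4.91, was just inside the choice. Faim2 (rank 11, -5.58), Lhx5 (rank 12, -6.18) and Ryr2 (rank 14, -5.91) were just outside it, and these also hold purine-only or pyrimidine-only runs, of 47, 82 and 51 bases.

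Fgf10 (ENSMUSG00000021732, plus strand, chr13:119458598-119580922 in mm9, the build of the deposited files) was read at 30 and 25.9 CPM in WT. It was at 25.3, 10.5, 8.35 and 15.3 CPM in PR-SET7_LOBE. In DEN_WT it was at 0.266 and 0.177 CPM, from 3 and 2 reads. Both WT libraries lay above every PR-SET7_LOBE library, of which replicate 1 came close to WT, and both DEN_WT libraries lay far below all others. The summed WT counts, scaled to library size, were 126 times those of DEN_WT, with a 95% interval of 53.8 to 390 that covers counting error only.

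Rdh19 (ENSMUSG00000054052, plus strand, chr10:127286984-127298232) lies in a cluster of related short-chain dehydrogenase genes. It stood at 218 and 439 CPM in WT. PR-SET7_LOBE libraries held 130, 148, 68.6 and 111 CPM. DEN_WT libraries held 3.63 and 2.65 CPM, from 41 and 30 reads. The groups did not overlap, and Rdh19 was the only one of the 8 genes with 30 or more reads in each DEN_WT library, so "nearly silent" describes it only relative to WT. The ratio of WT to DEN_WT was 105 (95% counting interval 83.3 to 135).

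Chst3 (ENSMUSG00000057337, minus strand, chr10:59644280-59682008) encodes the enzyme that places sulfate on carbon 6 of the N-acetylgalactosamine of chondroitin. Its level was 20.9 and 30.3 CPM in WT. The PR-SET7_LOBE libraries gave 15.7, 11.7, 9.28 and 17.8 CPM, and the DEN_WT libraries gave 0.708 and 0.442 CPM, from 8 and 5 reads. No library of one group overlapped another group, and the ratio of WT to DEN_WT was 44.7 (25.9 to 84.5).

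St8sia1 (ENSMUSG00000030283, minus strand, chr6:142770065-142912972) encodes GD3 synthase, which adds a second sialic acid to the ganglioside GM3. It was read at 26.1 and 30.4 CPM in WT. Its 4 PR-SET7_LOBE values were 28.1, 14.1, 13.8 and 22.2 CPM. The DEN_WT libraries gave 0.974 and 0.883 CPM, from 11 and 10 reads. Here PR-SET7_LOBE replicate 1 lay between the WT libraries, so those groups overlapped, whereas the DEN_WT libraries stood apart. The ratio of WT to DEN_WT, 30.5 (19.8 to 49.6), was the smallest among the 8 genes.

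Gadl1 (ENSMUSG00000056880, plus strand, chr9:115817682-115985294) encodes a decarboxylase related to the glutamate decarboxylases that makes beta-alanine from aspartate. WT libraries held 22.2 and 35.5 CPM, PR-SET7_LOBE libraries 17.8, 11.3, 6.68 and 17.8 CPM, and DEN_WT libraries 0.354 and 0.353 CPM, from 4 reads each. The groups did not overlap, and the ratio of WT to DEN_WT was 81.9 (41.3 to 191).

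Dynlt1c (ENSMUSG00000000579, minus strand, chr17:6646959-6655064) was at 33.5 and 21.9 CPM in WT. The PR-SET7_LOBE libraries held 13.6, 19.1, 23.1 and 15.8 CPM. DEN_WT held 0.443 and 0.265 CPM, from 5 and 3 reads. PR-SET7_LOBE replicate 3 lay above WT replicate 2, so these groups overlapped, and the DEN_WT libraries lay below all others. The ratio of WT to DEN_WT was 78.1 (39.4 to 182).

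Dcx (ENSMUSG00000031285, minus strand, chrX:140290385-140367854) was at 44.1 and 39.5 CPM in the WT livers. The 4 PR-SET7_LOBE libraries gave 30.8, 16.5, 12.9 and 27.4 CPM. The DEN_WT pair gave 1.15 and 1.06 CPM, from 13 and 12 reads. The groups did not overlap, and the ratio of WT to DEN_WT was 37.8 (25.4 to 58.7).

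Dpcr1 (ENSMUSG00000073408, minus strand, chr17:35772697-35780640) was at 26.5 and 27.8 CPM in WT. PR-SET7_LOBE libraries gave 19.3, 7.75, 6.68 and 12.3 CPM. Each DEN_WT library held 3 reads, at 0.266 and 0.265 CPM. Its groups did not overlap either, and the ratio of WT to DEN_WT was 102 (46.7 to 280). Liver is a mixture of cell types, and in bulk RNA fewer cells of a type and less RNA per cell cannot be told apart for any of the 8 genes.

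**Figure D1:**
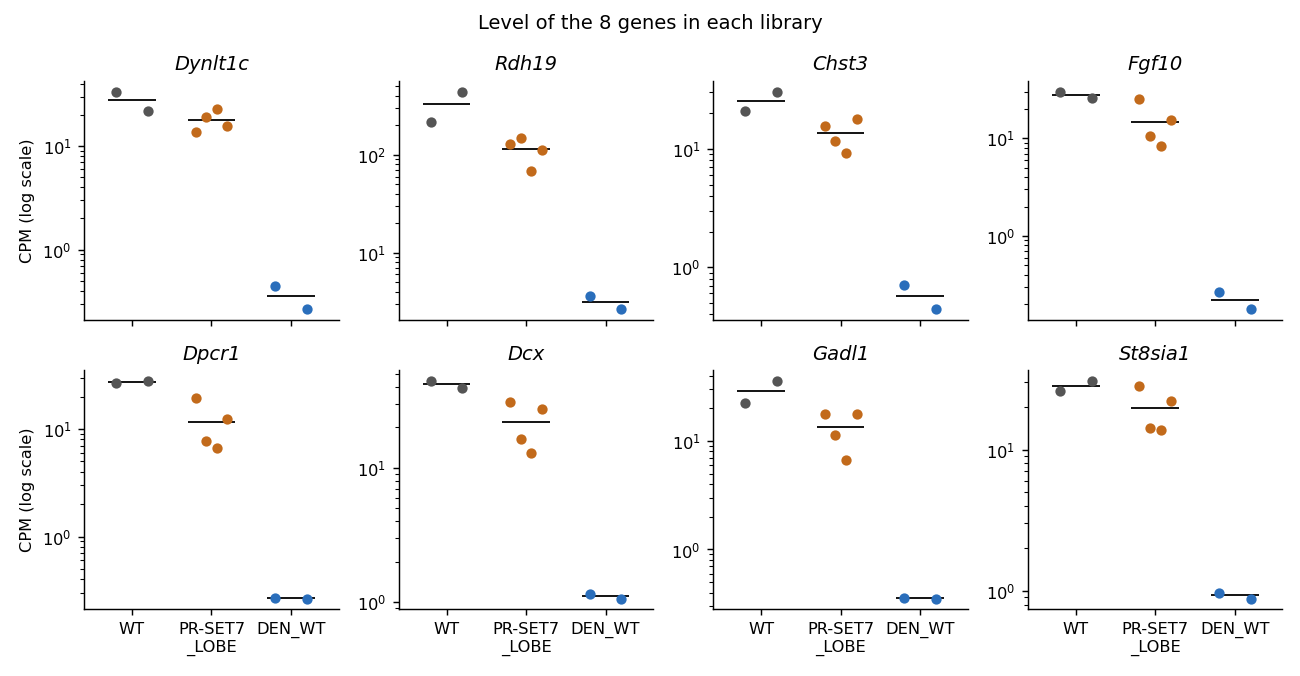
Level of each of the 8 genes in each library, in CPM on a log axis with its own range in each panel; points are libraries and black lines group means, for WT (2 libraries), PR-SET7_LOBE (4) and DEN_WT (2). The 2 DEN_WT points lie below all other points in each of the 8 panels.

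In the fit across all genes, the log2 fold changes of DEN_WT minus WT ran from -6.91 (standard error 0.75) for Fgf10 to -4.91 (0.55) for St8sia1, where the median of all tested genes was 0.06. The DEN_WT libraries were also below every PR-SET7_LOBE library for all 8 genes, as they were for 19.3% of tested genes. The ratio of the PR-SET7_LOBE mean to the DEN_WT mean ran from 19.8 for Dcx to 67.2 for Fgf10. These comparisons share the DEN_WT libraries that chose the genes and are therefore descriptions too.

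PR-SET7_LOBE levels were lower than in WT by smaller factors. The ratio of the WT mean to the PR-SET7_LOBE mean ran from 1.45 for St8sia1 to 2.87 for Rdh19, and the log2 fold changes of PR-SET7_LOBE minus WT from -1.52 (standard error 0.42, Rdh19) to -0.53 (0.38, St8sia1), against a median of 0.11 over all tested genes. In 6 of the 8 genes, all but Dynlt1c and St8sia1, every PR-SET7_LOBE library lay below every WT library. The same held for 10.5% of tested genes, and the full order with WT highest and DEN_WT lowest, kept by the same 6 genes, for 1.78%. The WT libraries of this comparison are those by which the genes were chosen as high, so nothing is read from the count.

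Within PR-SET7_LOBE, 6 genes ordered the 4 libraries alike. Chst3, Fgf10, Dpcr1, Dcx, Gadl1 and St8sia1 were each higher in replicates 1 and 4 than in replicates 2 and 3, with the highest library 1.91 to 3.02 times the lowest. Dynlt1c ran the other way in part, with replicate 3 highest and replicate 1 lowest, and Rdh19 was highest in replicate 2 and lowest in replicate 3. The genes outside the shared order were Dynlt1c, which holds no run, and Rdh19, whose run lies in the 5′ UTR. Whether the order goes with the runs or their place was not tested.

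The genes whose centred log2 CPM values over the 8 libraries came closest to each gene, taken as the 2 with the smallest root-mean-square difference, make a list of 15 distinct genes. The profiles include the WT and DEN_WT values that chose the 8 genes, so genes low in DEN_WT were found by construction and no support is drawn from the list. Of the 15, 12 hold a purine-only or pyrimidine-only run of 40 bases or more, which 408 of the 17205 other tested genes with a transcript (2.37%) hold. The list was picked to be low in DEN_WT and those other genes were not, so nothing is read from this difference. Faim2, Lhx5 and Ryr2, named above as just outside the choice, are in the list again. Lhx9 and Drp2 came closest to Dcx, at differences of 0.08 and 0.15, Celf6 and Scrt2 to Dpcr1 (0.17 and 0.18), and Zic1 and Ryr2 to Gadl1 (0.18 and 0.19). Scrt2 and Lhx5 were nearest to Fgf10 (0.20 and 0.21), Kcnc1 to St8sia1 (0.20), and Faim2 and Tbx5 to Chst3 (0.21 and 0.24). Dynlt1c and Rdh19 had less close neighbours: Chrnb4 and Sec14l3 at 0.50 and 0.52 for Dynlt1c, and H2-M10.5 and Rnf165 at 0.42 and 0.48 for Rdh19. Of these 4, Rnf165 alone holds a run of 20 bases or more.

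The feature was then measured over the whole table, leaving out the 8 genes. The search covered runs of C and T or of G and A in turn on the transcript strand, and, as a second class, runs of C and A, G and T, or A and T in turn, which alternate a purine with a pyrimidine. Chst3, Dcx, Gadl1 and St8sia1 hold alternating runs too, of 28, 40, 46 and 50 bases. By that measure they lie outside the classes below that keep alternating runs under 20 bases. Where both classes were under 20 bases, 486 of 14289 genes (3.4%) were called lower in DEN_WT. With the alternating class kept under 20 bases, the share called lower was 10.1% of 148 genes with a purine-only or pyrimidine-only run of 20 to 29 bases, 17.1% of 70 genes at 30 to 39 bases, and 38.5% of 239 genes at 40 bases or more. The median log2 fold change of DEN_WT minus WT was 0.12 without runs and -1.24 at 40 bases or more.

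Genes with alternating runs of the same lengths were called lower less often in each length class, as a description with no test. With purine-only and pyrimidine-only runs kept under 20 bases, 1.73% of 637 genes with an alternating run of 20 to 29 bases were called lower, 4.71% of 595 at 30 to 39 bases and 3.96% of 859 at 40 bases or more. The longest class had a median log2 fold change of -0.08. In the other direction, 202 of the 761 genes called lower in DEN_WT (26.5%) hold a purine-only or pyrimidine-only run of 20 bases or more, which 4.8% of all tested genes hold.

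**Figure D2:**
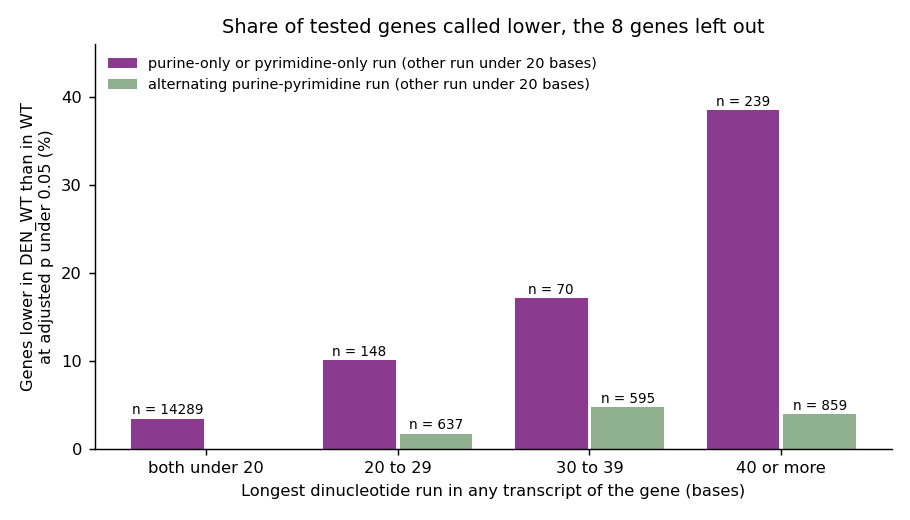
Percentage of tested genes called lower in DEN_WT than in WT (linear axis from 0) by length of the longest dinucleotide run in bases, for purine-only or pyrimidine-only runs (purple) and alternating runs (green), with the number of genes over each bar and the 8 genes left out. The purple bars climb from 3.4% to 38.5%, and the green bars lie between 1.73% and 4.71%.

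Genes with a long run differed in other measures too. Those with a purine-only or pyrimidine-only run of 40 bases or more and no long alternating run had a median mean level of 3.67 log2 CPM and a median transcript length of 4007 bases, against 2.93 and 2886 in genes without runs. The genes with a long alternating run were at 2.92 log2 CPM and 4616 bases. The part of level and of transcript length in the shares called lower was not tested. Of the 239 genes, 5 were called higher in DEN_WT. A long run also occurs in genes that did not pass: Chst15, a chondroitin sulfotransferase with runs of 49 bases of both classes and therefore outside the 239, stood at 32.1 and 34.6 CPM in WT and at 19.8 and 16.9 CPM in DEN_WT (log2 fold change -0.86, edgeR adjusted p = 0.171).

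The levels of all 408 genes with a purine-only or pyrimidine-only run of 40 bases or more, whatever their alternating runs, were also followed by library. Their median log2 CPM, relative to each gene's mean, was 0.52 and 0.43 in the WT libraries. It was 0.51, 0.01, -0.02 and 0.50 in those of PR-SET7_LOBE, but -0.65 and -0.61 in the DEN_WT pair. PR-SET7_LOBE replicates 1 and 4 were again above replicates 2 and 3, the order seen in 6 of the 8 genes. The 417 genes with a run of 20 to 39 bases, the length class of Chst3 and Gadl1, did not keep that order. Their medians were 0, 0.03, 0.10 and 0.24 in PR-SET7_LOBE, 0.15 and 0.19 in WT, and -0.27 in each DEN_WT library. For the 16380 genes with a run under 20 bases the 8 library medians stayed between -0.12 and 0.07. The part of these runs in the low DEN_WT levels of the 7 genes was not tested.

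**Figure D3:**
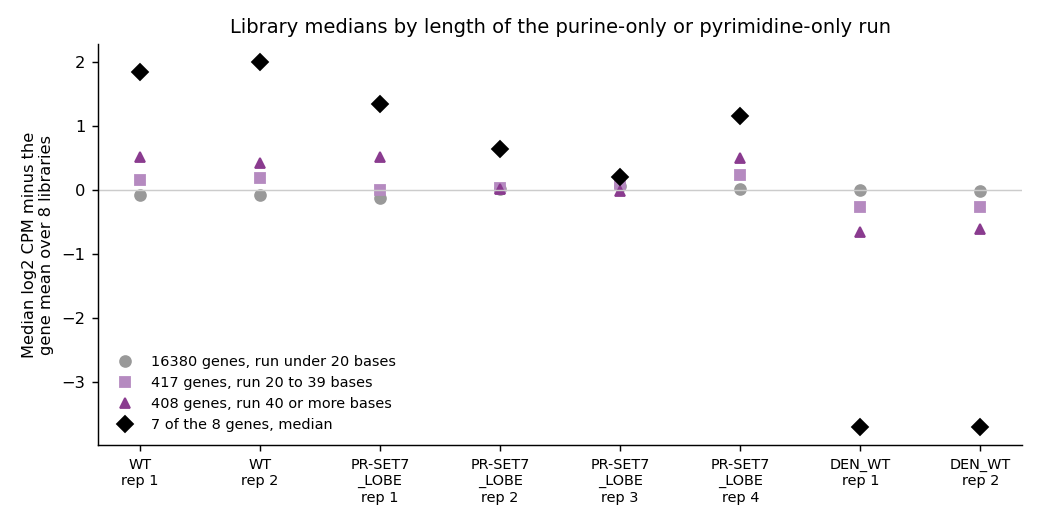
Median log2 CPM of each gene class in each library, relative to each gene's mean over the 8 libraries, for genes grouped by the length of their purine-only or pyrimidine-only run, with the median of the 7 run-bearing genes of the 8 as black diamonds. The class of 40 bases or more is at -0.65 and -0.61 in DEN_WT, and the 7 genes, chosen for being low there, are at -3.70 and -3.71.

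Dynlt1c is 1 of several near-identical copies. Its longest protein-coding transcript, of 2589 bases, matched Dynlt1a over 2550 bases at 99.0% identity, Dynlt1f over 2180 bases at 99.6%, Dynlt1b over 771 bases at 99.2% and the pseudogene Dynlt1-ps1 over 342 bases at 100%. How reads were shared between copies is not stated, so the level of any single copy is uncertain.

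The other copies were lower in DEN_WT as well. Dynlt1a was at 18.4 and 15.1 CPM in WT, between 6.10 and 10.2 CPM in the PR-SET7_LOBE livers, and down at 1.06 and 0.883 CPM in DEN_WT (log2 fold change -4.09, standard error 0.53, edgeR adjusted p = 0.00207). Dynlt1f went from 17.4 and 13.3 CPM to 1.33 and 1.24 CPM (-3.57, adjusted p = 0.00251), and Dynlt1b from 20.7 and 16.6 CPM to 5.40 and 3.00 CPM (-2.15, adjusted p = 0.0222). All 3 fell, and Dynlt1a passed in each of the 8 fits that left out 1 library. Dynlt1f missed the threshold without DEN_WT replicate 2, and Dynlt1b without either WT or either DEN_WT library, where its adjusted p reached 0.249.

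The sum of Dynlt1a, b, c and f was 90 and 66.9 CPM in WT, 39.5, 50, 51.2 and 34.7 CPM in PR-SET7_LOBE. It was 8.23 and 5.39 CPM in DEN_WT. The DEN_WT libraries lay below all others. Dynlt1c made up 37.2% and 32.8% of that sum in WT, 34.4% to 45.4% in PR-SET7_LOBE, and 5.38% and 4.92% in DEN_WT. Dynlt1-ps1, singled out after its values were seen, moved the other way: it was at 0.191 and 0.277 CPM in WT, from 2 and 3 reads, and at 4.25 and 5.39 CPM in DEN_WT (log2 fold change 4.30, adjusted p = 0.00961, at most 0.158 when 1 library was left out).

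**Figure D4:**
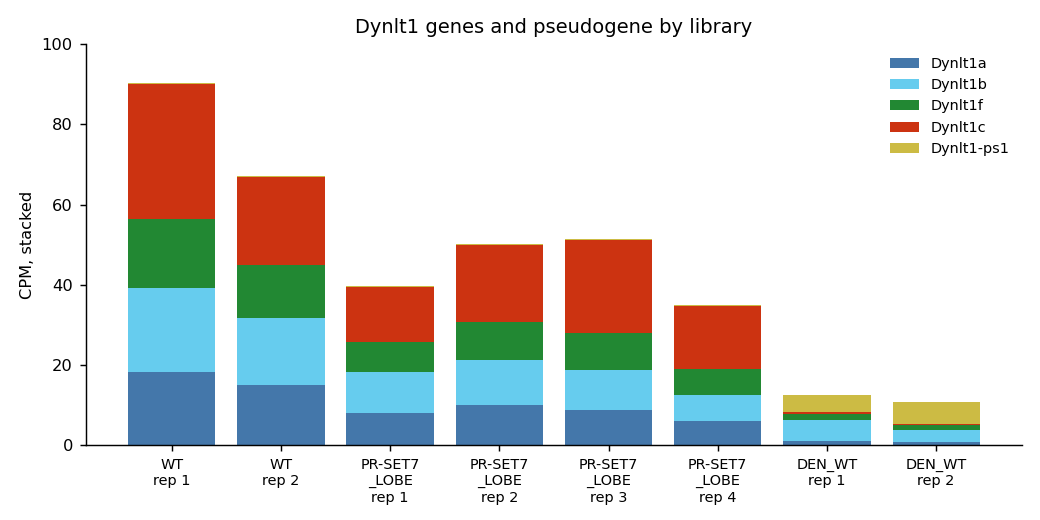
Stacked CPM of Dynlt1a, Dynlt1b, Dynlt1f, Dynlt1c and the pseudogene Dynlt1-ps1 in each of the 8 libraries, on a linear axis from 0. The 4 genes sum to 90 and 66.9 CPM in WT and to 8.23 and 5.39 CPM in DEN_WT, where the pseudogene adds 4.25 and 5.39 CPM.

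Among 23 tested genes of dynein and dynactin other than Dynlt1c, 3 fell in DEN_WT (the 3 Dynlt1 copies), 2 rose and 18 did not pass, with a median log2 fold change of 0.14 beside 0.06 over all tested genes. The genes that rose were Dynlt3, another Tctex-type light chain (3.40, adjusted p = 0.0175), and Capza2, the capping protein subunit found in dynactin (2.29, adjusted p = 0.0122). Both missed the threshold without either WT or either DEN_WT library, with adjusted p up to 0.115 and 0.0942.

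Rdh19 has close relatives rather than near-identical copies. Its transcript matched Rdh16 at 86.0%, Rdh9 at 86.1%, Rdh7 at 86.2% and Rdh1 at 88.9% identity, and Rdh18-ps, the pseudogene just before it on chromosome 10, at 92.2% over 957 bases. Rdh18-ps, a neighbour by position that was set among the relatives after its values were seen, was at 317 and 747 CPM in WT, between 97.8 and 214 CPM in the PR-SET7_LOBE livers, and down at 13.6 and 11 CPM in DEN_WT (log2 fold change -5.43, standard error 0.64, edgeR adjusted p = 0.00168). It holds no purine-only or pyrimidine-only run of 8 bases or more.

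Retinol-oxidising relatives of Rdh19 were lower to different degrees. Rdh1 fell from 15.5 and 38.5 CPM to 1.51 and 1.5 CPM (log2 fold change -4.16, standard error 0.65, adjusted p = 0.00368). Rdh16 fell from 197 and 471 CPM to 65 and 32.3 CPM (-2.78, standard error 0.55, adjusted p = 0.0113), and missed the threshold without WT replicate 2 or DEN_WT replicate 2, with an adjusted p up to 0.161. Rdh1 and Rdh18-ps passed in each of the 8 fits that left out 1 library. Rdh9 (-1.21, adjusted p = 0.184), Rdh7 (-0.67, adjusted p = 0.397) and BC089597, the neighbour on the other side with a run of 31 bases (-0.45, adjusted p = 0.535), did not pass. The group of 32 tested retinoid genes other than Rdh19 had 2 that fell (Rdh1 and Rdh16), 2 that rose and 28 that did not pass, with a median of -0.50.

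Of the retinoid genes that rose, Dhrs9, a retinol dehydrogenase of another branch, went from 0.383 and 0.645 CPM in WT to 20.8 and 30 CPM in DEN_WT (log2 fold change 5.59, adjusted p = 0.00642, lost without WT replicate 1 at 0.0644). The stellate cell and fibroblast markers summed to 171 to 197 CPM in WT, 223 to 321 CPM in PR-SET7_LOBE and 234 to 373 CPM in DEN_WT, with 1 of 12 called higher and 1 lower.

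**Figure D5:**
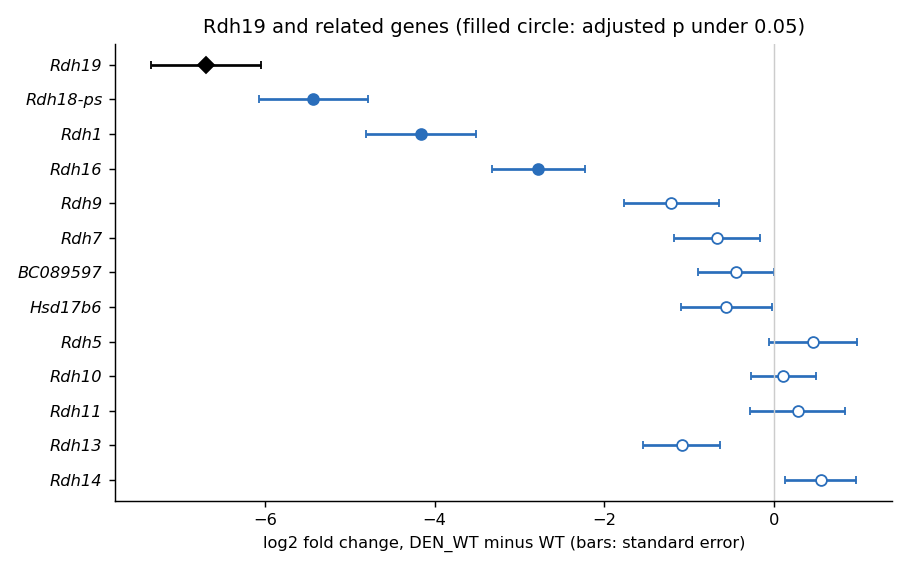
Log2 fold change of DEN_WT minus WT for Rdh19 (black diamond, chosen for this difference) and related genes, with bars of 1 standard error and filled circles at an edgeR adjusted p under 0.05. Rdh18-ps, Rdh1 and Rdh16 lie between -5.43 and -2.78, and the remaining relatives lie nearer to 0 with open circles.

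Around Fgf10, 2 other FGF ligand genes fell. Fgf7, which signals through the same receptor form as Fgf10, went from 22.2 and 19.6 CPM in WT to 0.443 and 1.15 CPM in DEN_WT, with 6.50 to 19.3 CPM in PR-SET7_LOBE (log2 fold change -4.70, standard error 0.71, edgeR adjusted p = 0.00321). Fgf13, an intracellular FGF that binds sodium channels, went from 14.7 and 26.2 CPM to 0.443 and 0.0883 CPM (-6.21, standard error 0.85, adjusted p = 0.00231). Both hold a purine-only or pyrimidine-only run, of 42 bases in Fgf7 and 56 in Fgf13, and both passed in each fit that left out 1 library.

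The receptor side differed. Fgfr2, the receptor of Fgf10, had a log2 fold change of 0.44 (adjusted p = 0.531), and Fgfrl1, a receptor without a kinase, fell (-2.18, adjusted p = 0.0255). Dusp6 (2.28, adjusted p = 0.0364) and Etv4 (3.72, adjusted p = 0.0308), both target genes of FGF signalling through ERK, rose. Fgfrl1, Dusp6 and Etv4 each missed the threshold without any 1 of the WT or DEN_WT libraries, with adjusted p up to 0.357. In all, 3 of 25 tested genes of the FGF list fell, 2 rose and 20 did not pass, with a median of 0.44.

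For St8sia1, 28 genes of ganglioside synthesis and breakdown were tested: 1 fell, 4 rose and 23 did not pass, with a median of -0.35. The gene that fell, St8sia3, is a sialyltransferase with a run of 40 bases (log2 fold change -3.53, standard error 0.70, adjusted p = 0.0115, up to 0.142 when 1 library was left out). Among those that rose, Ugcg makes glucosylceramide (2.34, adjusted p = 0.0334) and B4galt6 makes lactosylceramide (1.91, adjusted p = 0.0481). St8sia4, a polysialyltransferase, had 0 counts in each WT library and 24 and 26 counts, 2.13 and 2.30 CPM, in DEN_WT (adjusted p = 0.0205). These 3 missed the threshold without any 1 of the WT or DEN_WT libraries, with adjusted p up to 0.321, and B4galt6 also without PR-SET7_LOBE replicate 2 (0.0617) or 4 (0.0563).

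For Gadl1, 25 genes of taurine, beta-alanine and carnosine metabolism were tested: 4 fell, none rose and 21 did not pass, with a median of -0.46. Gad2, a glutamate decarboxylase of the same family, fell most (log2 fold change -3.99, standard error 0.65, adjusted p = 0.00456) and missed the threshold without either DEN_WT library, at up to 0.0781. It holds no purine-only or pyrimidine-only run of 8 bases but an alternating one of 45. The other 3 were Slc15a1, a peptide transporter (-3.78, adjusted p = 0.0305), Dpys, a pyrimidine-degrading enzyme (-2.20, adjusted p = 0.0340), and Abat, the GABA and beta-alanine transaminase (-2.17, adjusted p = 0.0202). Each missed the threshold without any 1 of the WT or DEN_WT libraries, with adjusted p up to 0.251, and Dpys also without PR-SET7_LOBE replicate 2 (0.0542). Csad, which supplies hypotaurine, had a log2 fold change of -1.05 (adjusted p = 0.275).

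The lists for Chst3, Dcx and Dpcr1 held little that passed. Of 25 tested genes of chondroitin and dermatan sulfate synthesis, 1 rose, the PAPS transporter gene Slc35b3 (1.83, adjusted p = 0.0487, lost in 6 of the 8 fits that left out 1 library and with upper-quartile scaling), and none fell. None of 17 tested genes of the doublecortin family and neuronal cytoskeleton passed, with a median of -0.09. Dclk1, the closest relative of Dcx, had a log2 fold change of 0.74 (adjusted p = 0.704). None of 24 mucin genes passed, with a median of 1.41.

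Over the 8 lists, 24 of 199 tested genes (12.1%) passed in DEN_WT against WT, 11 higher and 13 lower, where 9.73% of all tested genes passed (5.18% higher and 4.54% lower). Of the 13 that fell, 3 (Fgf7, Fgf13 and St8sia3) hold a purine-only or pyrimidine-only run of 20 bases or more, as do 13 of the 199. In PR-SET7_LOBE against WT none of the 199 passed edgeR's test at an adjusted p under 0.05, where 0.248% of all tested genes did (0.15% higher and 0.0979% lower). The lowest adjusted p was 0.0836, 38 had an unadjusted p under 0.05, and DESeq2 called 8.

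Of 16 tested genes that flank the 8, 4 fell in DEN_WT and 1 rose, where 4.54% of all tested genes fell and 5.18% rose. Those that fell were Dynlt1f and AC175035.1 (-2.01) on either side of Dynlt1c, Rdh18-ps beside Rdh19, and Spock2 beside Chst3 (-2.80, adjusted p = 0.0145), a proteoglycan gene with a run of 38 bases. In WT, AC175035.1 had 182 and 140 counts, close to the 182 and 144 of Dynlt1f. In DEN_WT it had 51 and 34, beside 15 and 14. These genes may share reads and are not read as separate falls, and AC175035.1 is not in the Dynlt1 sums above. Dynlt1f and Rdh18-ps are also related in sequence to the gene they flank, so the count is not read as a result about position. Gm9385, which rose (3.09, adjusted p = 0.0445), lies inside Gadl1 on the opposite strand. AC175035.1, Spock2 and Gm9385 missed the threshold without WT replicate 1 or without either DEN_WT library, with adjusted p up to 0.278. AC175035.1 (0.0806) and Gm9385 (0.152) also missed it without WT replicate 2, and Gm9385 without PR-SET7_LOBE replicate 2 (0.0563) and with upper-quartile scaling. Without a stated strand setting, reads of Gadl1 and Gm9385, or of St8sia1 and the overlapping Gm7457, cannot be told apart.

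Markers of the cells that the liver holds were set beside these values. Hepatocyte markers summed to 110000 to 146000 CPM in WT, 46600 to 165000 in PR-SET7_LOBE and 126000 to 159000 in DEN_WT, and none of 8 passed. Neuron and Schwann cell markers, the cells in which Dcx is best known, summed to 18.4 to 24.1 CPM in WT, 15.2 to 46.6 in PR-SET7_LOBE and 18.2 to 18.4 in DEN_WT. Of the 7 tested, 1 (Mbp) was called lower, and Th, Sox10 and Gap43 had 0 counts in both WT libraries, where Dcx was at its highest. Cholangiocyte markers summed to 38 to 68 CPM in WT, 119 to 296 in PR-SET7_LOBE and 433 to 738 in DEN_WT. Of the 8, 2 were called higher (Spp1 and Cldn7) and none lower. Spp1 made up most of the DEN_WT sums, at 15.5 and 9.04 CPM in WT and 383 and 679 CPM in DEN_WT. The sum thus rested mainly on 1 gene, and Krt7 and Krt19 had negative log2 fold changes (-0.79 and -0.29) that did not pass.

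Lymphocyte markers were summed with and without the gene that carried most of each WT sum. Those of T and NK cells summed to 21 to 21.4 CPM in WT, 20.6 to 29.5 in PR-SET7_LOBE and 8.83 to 8.94 in DEN_WT. Without Cd3d, which was at 14 and 13.6 CPM in WT, the sums were 7.46 to 7.47, 13.7 to 23.2 and 8.57 to 8.59 CPM. Those of B and plasma cells summed to 28.2 to 36.5, 30.4 to 48.9 and 11.7 to 12.7 CPM, and without Cd22 (26.3 and 31 CPM in WT) to 1.91 to 5.54, 10.3 to 36.9 and 10.4 to 10.7 CPM. The low DEN_WT sums of both lists thus rested on 1 gene each, and these were the only genes of their lists that passed: Cd3d of 9 tested (log2 fold change -5.42, adjusted p = 0.00237) and Cd22 of 7 (-4.12, adjusted p = 0.00231). Both hold a purine-only or pyrimidine-only run, of 42 and 47 bases, as does Ngfr, the stellate cell marker called lower, with 45. Mbp, the neuron and Schwann cell marker called lower, holds no such run (log2 fold change -2.72, edgeR adjusted p = 0.0104). Among markers not called, Reln holds a run of 42 bases (0.52, adjusted p = 0.531) and Krt7 a run of 37 (-0.79, adjusted p = 0.513).

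Sex markers differed between libraries as well. The 4 Y-linked genes summed to 19.7 to 21.9 CPM in WT, 7.37 to 44.4 in PR-SET7_LOBE and 81.6 to 107 in DEN_WT. Xist, which is made from the inactive X chromosome, was at 0.574 to 0.83 CPM in WT, 0.188 to 7.93 in PR-SET7_LOBE and 0.53 to 0.531 in DEN_WT. Female-biased liver genes summed to 392 to 706 CPM in WT, 732 to 3990 in PR-SET7_LOBE and 2150 to 4100 in DEN_WT. Of 14 tested, 2 were called higher and 1 lower. Cyp2a4 made up most of the DEN_WT sums, at 71.4 and 160 CPM in WT, 609 to 3280 in PR-SET7_LOBE and 3720 and 1910 in DEN_WT. Cyp3a44, the gene called lower, was at 66.3 and 133 CPM in WT and at 20 and 10.2 CPM in DEN_WT. Male-biased genes summed to 3650 to 8470, 1410 to 4000 and 4850 to 6270 CPM, with none of 12 called. The part of cell makeup and of sex in the levels of the 8 genes was not tested.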

How the data were processed

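Messenger RNA of whole mouse liver was captured on oligo(dT) beads, cut with RNase III, made into libraries with the Ion Total RNA-Seq Kit v2 and read on an Ion Proton, per the labels' protocols. The submitters' processing notes name TopHat2 2.0.9, Cufflinks, DESeq and the mm9 genome. For the counter, the annotation, the strand setting and the rule for multi-mapped reads, the sources used here give nothing. The authors deposited raw counts per gene, in single files that equal the columns of the table for all 8 libraries.

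From these counts, genes were filtered with filterByExpr and fitted over all 8 libraries with edgeR 4.0.16 (robust quasi-likelihood, TMM scaling, R 4.3.3), without a replicate block. P-values were adjusted by the Benjamini-Hochberg method over all 17362 tested genes and called under 0.05. Log2 CPM used a prior count of 2. The script was tested on simulated counts with known changes, up or down. In DEN_WT against WT it recovered 17 of 100 genes changed 4-fold and 85 of 100 changed 16-fold, with 4 false calls. In PR-SET7_LOBE against WT it recovered 33 and 87 of 100, with 3 false calls. Genes that did not pass may therefore still differ between groups. The biological coefficient of variation was 0.479. The labels do not say that libraries of a group came from separate animals, so p-values measure the spread between these libraries, which may be technical. No pair of replicates agreed within sampling noise (chi-square per degree of freedom of 27.4 or more). Reads carry no molecular identifiers, so intervals cover counting error only; the 95% intervals are exact (Clopper-Pearson on the split of summed counts).

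Runs and copies were searched in GENCODE M21 transcripts, with blastn 2.17.0 for copies. Those transcripts are of another build, so genes were matched by ID (87.4% of the table) or else by symbol, and 149 tested genes had none. The genes named are the 8, the called or closest members of lists of their families, their flanking genes, the 2 most alike in pattern, and those said to be singled out later. Genes, lists and tests were chosen with earlier results of these data known, and the run search after the counts were seen. Alternatives were other scalings, DESeq2 1.42.0, other filters, a fit on only the 2 groups compared, a replicate block and leaving out each library. A few genes that the rule names are not reported here.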

Additional observations from a re-analysis of the deposited data

Results flagged for a closer look

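In the PR-SET7_LOBE group, the single group of 4 libraries, 34 sets of values of the 8 genes and of the family genes were searched for a library far from the other 3, and 2 were found, where chance gives about 1 in 20. St8sia3 was at 11.4 CPM in PR-SET7_LOBE replicate 1, far above the other 3 libraries. Dynlt1-ps1 was at 0.188 CPM in PR-SET7_LOBE replicate 1, below the other 3, a value that rests on 2 reads.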

How the results depend on the processing

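For the 8 genes, the log2 fold change of DEN_WT minus WT was negative in 120 of 120 alternative values, from -7.19 to -4.69, and that of PR-SET7_LOBE minus WT in 120 of 120, from -1.95 to -0.30. All these fits draw on the WT and DEN_WT libraries by which the genes were chosen, so nothing is read from the shared signs. Counts of called genes, over the whole table and in the family lists, moved with the settings. DEN_WT against WT called 1689 genes: 3144 with DESeq2, 5643 in a fit on only the 2 groups and 3137 with a replicate block. Of its family genes, 24 were called, 56 in the 2-group fit and 34 with the replicate block. PR-SET7_LOBE against WT called 43 genes: 66 with upper-quartile scaling, 927 with DESeq2, 419 with no filter, 19 in the 2-group fit and 243 with the replicate block. Its family genes numbered 0, but 8 with DESeq2, 6 with no filter and 1 with the block. Upper-quartile scaling moved the median of all genes in that comparison from 0.11 to 0.29, and its split of higher and lower calls from 26 and 17 to 47 and 19. Leaving out 1 library gave 329 (without DEN_WT replicate 2) to 4549 (without PR-SET7_LOBE replicate 1) called genes in DEN_WT against WT, with 5 to 49 family genes, and 1 (without WT replicate 2) to 2392 (without PR-SET7_LOBE replicate 1) in PR-SET7_LOBE against WT, with 0 to 31. The cause was not tested. All 13 family genes called lower in DEN_WT kept that call with DESeq2, both other scalings, no filter, the 2-group fit and the block. The strict filter kept 12, leaving out a WT library 8 or 6, a DEN_WT library 6 or 4, and PR-SET7_LOBE replicate 2 12. The share of the long-run genes (40 bases or more) called lower ran from 20.8% to 53.8% over the alternatives, beside 0.947% to 16.7% of all genes in the same 2 fits. Between replicates with the same number, deviations had r from -0.00874 to 0.165. With only 2 libraries in each of WT and DEN_WT, these values cannot show whether the numbers pair the libraries. With 2 libraries in each of WT and DEN_WT, and 2 to 13 reads per DEN_WT library in 7 of the 8 genes, low levels there are known only roughly. The intervals given are for the ratio of WT to DEN_WT and cover counting error only. They leave out the spread between libraries and are therefore too narrow as a measure of the full uncertainty.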
